A study of Drosophila melanogaster with 18 samples.

Results

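The expression of 1 copper-inducible reporter was compared across 749 mapped integration sites in the genome of Drosophila Kc167 cells, an embryonic cell line, in the GAL4 control. All 749 reporters of the deposited table were used, and none was selected by its level. Of the 18 samples of the series, the 4 GAL4 libraries were described here, 2 replicates each of barcode counts in reporter mRNA (cDNA) and in genomic DNA (gDNA). The cells carried the 5xGal4UAS-pMT-GFP reporter, placed at random by Sleeping Beauty transposition at 0.3 integrations per cell, and were induced with 0.5 mM copper sulfate. The control plasmid expressed Gal4DBD-V5, the DNA-binding domain of yeast GAL4 with a tag and without ACF1 or HP1a, from the Ac5 promoter, and transfected cells were sorted for mCherry on day 2. All groups of the series came from 1 pool of reporter cells, grown from a limited number of founder cells. The replicates are named technical in the series description but biological in the study's methods, and p-values measure only the spread between these libraries.

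In a TRIP pool (many reporters integrated in parallel) every reporter has the same promoter and coding sequence, and a random barcode in its transcript tells the sites apart. Differences between sites are known as position effects. Chromatin in Drosophila is broadly divided into gene-rich euchromatin of the chromosome arms and repeat-rich heterochromatin around the centromeres, on the Y chromosome and over much of chromosome 4, and genes moved next to heterochromatin are classically silenced in some cells. The pMT promoter is that of a metallothionein gene, which is switched on by metal ions through the transcription factor MTF-1. The GAL4 DNA-binding domain binds the 5 UAS sites upstream of the promoter but lacks the activation domain.

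A reporter is identified by its barcode of 21 nt, and the barcodes of the reporters on which the extremes and the neighbour comparisons rest are shown here 5′ to 3′, in lower case throughout.
3L, position 3430681, the highest reporter of the pool: gatacttagtagcttagcgcc
3R, position 4644683, the highest of 3R: tgggtaagggcaactgaactt
X, position 3325631, the highest of X: gggggggcacgtcaggaagtg
2L, position 1690094, the highest of 2L: tcggtgtgggatgcgaattac
3RHet, position 743345, without a cDNA read: tctctttcctgacctggatcg
2L, position 4122676, without a cDNA read: gtttcattgttggggcagtac
3L, position 16900114, near the median: gtttgactttgagcgggtagg
3L, position 16904041, its neighbour at 3927 bp with high expression: actgggctcgtgcgagaatgg
Positions are those of the deposited table, in dm3 coordinates. The GC content of the barcode had no visible relation to the level, with a Spearman correlation of 0.0077 with expression across the 749 reporters. Other traits of the barcode sequence were not examined. The correlation with the share of gDNA reads was -0.05.

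Expression is the cDNA count divided by the gDNA count of the same replicate, times 1 factor per library, so it is a level per reporter copy. A lower value cannot be told apart between fewer cells expressing the reporter and less RNA per cell. The median reporter had an expression of 29.4 in the mean of both replicates, 27.9 in replicate 1 and 24.3 in replicate 2. The lower and upper quartiles were 9.55 and 79.5. The 10th and 90th percentiles were 3.13 and 238, a 76.1-fold span, with 79.4-fold in replicate 1 and 122-fold in replicate 2. The distribution was skewed. The mean was 116 and was exceeded by only 142 reporters, 10 reporters lay above 1000, and the highest stood 245-fold above the median. A total of 709 reporters had cDNA reads in both replicates, 32 had none in 1 replicate and 8 had none in both.

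**Figure D1:**
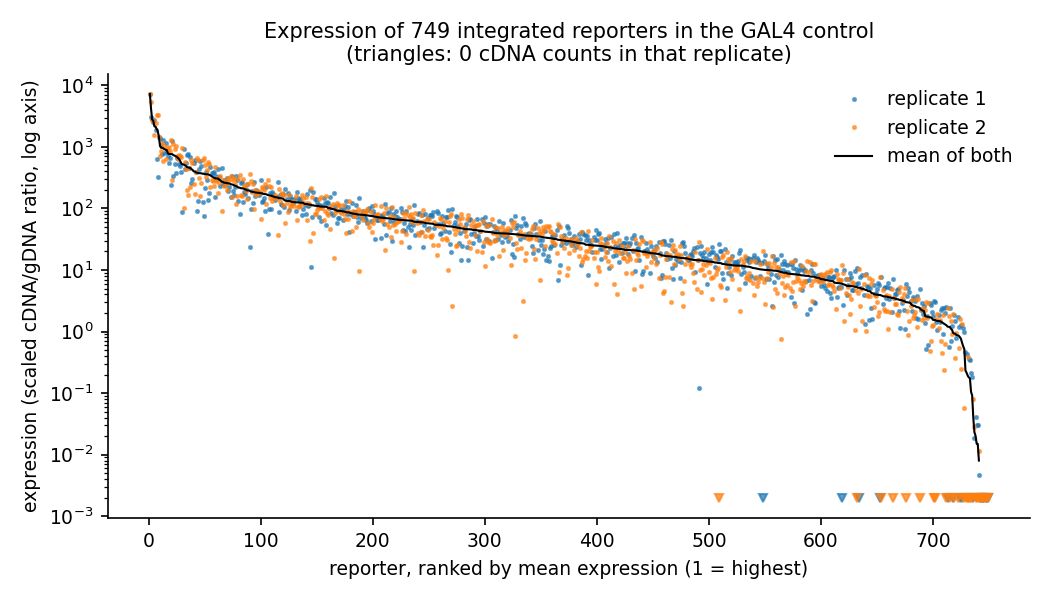
Expression (scaled cDNA over gDNA ratio, log axis) of the 749 reporters against their rank by mean expression, with replicate 1 in blue, replicate 2 in orange and the mean as a line. Triangles mark replicates with 0 cDNA counts; the line falls from 7209 at the highest reporter through 29.4 at the median to the 8 reporters without reads in both.

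The spread between sites was wide compared with the spread between replicates. Over the reporters above 0 in both replicates, log2 expression correlated with r = 0.85 and a Spearman rho of 0.84 between replicates, across reporters that share the same 4 libraries. The SD over sites was 2.34 on the log2 scale, against 0.97 for 1 replicate about the mean of its site, and 84.3% of the variance lay between sites. The same reporter differed by a median of 0.79 on the log2 scale between replicates. Split at the quartiles of expression, this difference was 0.86 in the lowest group and 0.67 in the highest.

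The GAL4 cDNA libraries held 4181903 and 3941610 counts and the gDNA libraries 2656283 and 1689978. Over all 16 libraries with counts, totals ranged from 1535023 to 4181903. The middle cDNA count was 785 and 588 and the middle gDNA count 1845 and 1188, and the lowest gDNA counts were 149 and 98. Under 10 cDNA counts in either replicate were seen for 47 reporters. Reads were not collapsed to molecules, so floors set by a count of 0 cover counting error only. The table holds barcodes and no endogenous genes, so markers of Kc167 cells could not be examined.

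Single sites were compared with the middle of the pool by edgeR's quasi-likelihood test of cDNA against gDNA counts. Of the 749 reporters, 180 lay above the middle reporter (24.0%) and 170 below it (22.7%), 350 in either direction (46.7%). The zero point is a choice of scaling. It was set over the reporters with counts in all 4 libraries. The median fitted log2 ratio of all 749 was -0.25, so the point called the middle reporter lay slightly above the median reporter. With the column totals as library sizes, 60 were above and 401 below. With a replicate left out and the other conditions in the fit, 79 were above and 46 below without replicate 1, and 67 and 29 without replicate 2. These fits also moved the zero point. With the size factors of the GAL4 libraries kept, the counts were 119 and 24 without replicate 1, and 98 and 16 without replicate 2.

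The highest reporter lay on 3L at chr3L:3430681 in minus orientation. It had 109283 and 124223 cDNA counts from 1031 and 811 gDNA counts, which gave an expression of 7300 and 7118 in replicates 1 and 2. Its fitted log2 ratio to the middle reporter was 7.92 ± 0.35 (SE, adjusted p = 2.16e-07, edgeR). The next highest reporter outside 2R, at chr3R:4644683 in plus orientation, reached 2799 and 2785. It was also abundant as DNA, and alone took 13.7% and 13.2% of all cDNA counts. Its fitted log2 ratio was 6.54 ± 0.24 (SE, adjusted p = 9.58e-08, edgeR). On X, the reporter at chrX:3325631 reached 2532 and 2780. On 3R, the reporter at chr3R:398375, which is close to the centromere, reached 1855 and 2402. In all 4 the replicates lay close together compared with their distance from the median.

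The lowest reporters produced no cDNA reads although their barcodes were counted in gDNA, at 345 counts or more for the 4 with the lowest fitted log2 ratio. The reporter at position 743345 of 3RHet, an assembly scaffold of heterochromatin of 3R, had 0 cDNA counts in both replicates from 4323 and 3868 gDNA counts. With a floor of 3 counts in each library, it lay at least 701-fold below the median (adjusted p = 1.16e-05, edgeR). A site on 2RHet at position 2317911 had 0 counts from 1541 and 1052 gDNA counts, at least 220-fold below. A site at position 2445889 of 3RHet was at least 171-fold below and a site on the unplaced scaffold U at position 605404 at least 84.7-fold. These are bounds, so the true order of the lowest reporters is not known. With the same floor, the reporter at position 198757 of 3RHet, which had 1 and 2 cDNA counts, lay at least 1899.5-fold below. The 8 reporters without reads in both replicates comprised 3 on Het scaffolds, 2 on U and 1 each on 2L, 3L and 3R. The 3 on the arms had bounds of at least 49.9-fold (chr2L:4122676), 75.6-fold (chr3L:4581277) and 128-fold (chr3R:9007776). The lowest reporter of X, chrX:20444792, had 2 and 0 cDNA counts from 754 and 429 gDNA counts.

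The large arms differed little in their medians compared with the spread within each of them. Reporters on 3L had a median expression of 37.5 (n = 150), those on 2R 36.8 (n = 112) and those on 3R 35.3 (n = 176). Reporters on X had a median of 25.3 (n = 147) and those on 2L the lowest, 19.7 (n = 131). On the log2 scale the highest and the lowest median differed by 0.92, with 0.69 in replicate 1 and 1.01 in replicate 2. The order of 3L, 2R and 3R changed between the replicates, and their medians differed by less than the replicates did. X and 2L held the last 2 places in both. The log2 median of 2L was 4.49 and 4.14 in replicates 1 and 2, and that of X was 4.78 and 4.24. Relative to the median of all reporters of the same replicate, 2L lay at -0.31 and -0.46 and X at -0.02 and -0.36, so the distance between them was not the same in the replicates.

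Other measures of the same libraries went with the low level of 2L to different degrees. It had 20 reporters above the middle reporter and 33 below (15.3% and 25.2%), against 24.0% and 22.7% of all reporters. Its share below was thus close to that of the pool. On 3R 57 were above and 37 below (32.4% and 21.0%), and on 2R 32 and 18 (28.6% and 16.1%). X had 32 above and 31 below (21.8% and 21.1%), and 3L had 36 and 31 (24.0% and 20.7%). None of the 10 highest reporters of the pool lay on 2L, which held 17.5% of all reporters, so so small a count says little. Of these 10, 3R and 2R held 3 each (with 23.5% and 15.0% of all reporters). X and 3L held 2 each (with 19.6% and 20.0%). The highest reporter of 2L, chr2L:1690094, reached 758 and 1175. In read shares, 2L contributed 16.04% and 16.3% of the gDNA counts but 5.82% and 5.77% of the cDNA counts. X had 18.9% and 19.4% of gDNA and 14.8% and 14.8% of cDNA, and 3L had 19.8% and 19.5% of gDNA and 16.8% and 16.9% of cDNA, so both also had a smaller share of cDNA. For 3R these were 28.4% and 28.1% of gDNA and 36.4% and 35.4% of cDNA. Without its strongest reporter 3R had 22.7% and 22.3% of the cDNA, below its gDNA share, so its excess rested on that reporter. That reporter stayed in the cDNA total and in the gDNA share, so the distance below the gDNA share is overstated. For 2R they were 12.2% and 11.5% of gDNA and 21.1% and 22.2% of cDNA, of which 1 reporter held 8.51% and 9.71%.

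**Figure D2:**
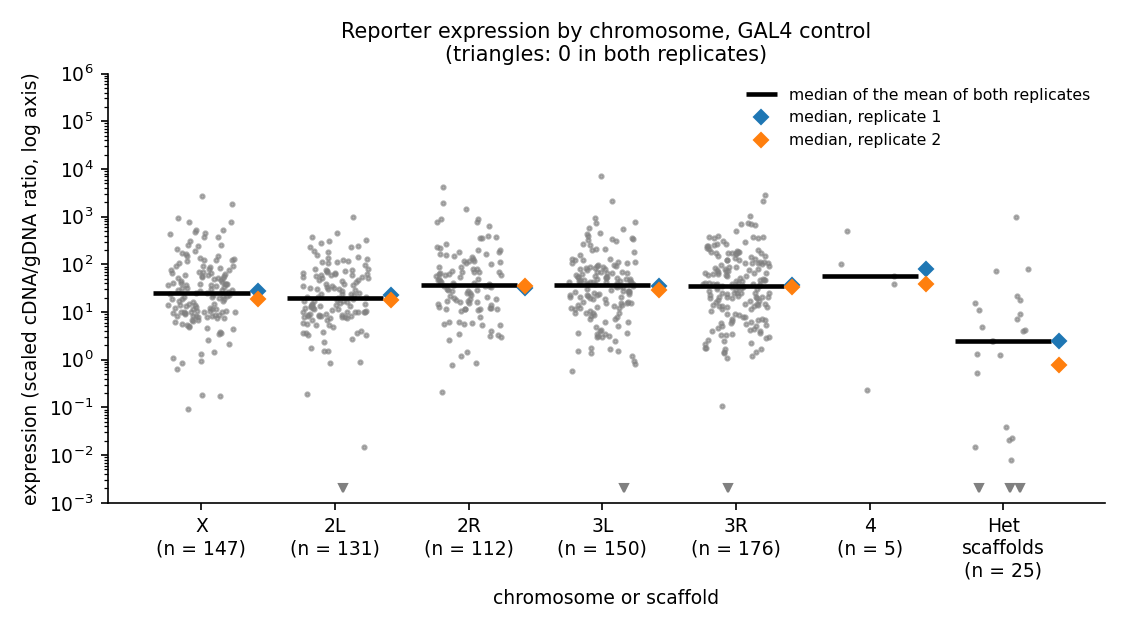
Expression (log axis) of each reporter, as the mean of both replicates, by chromosome arm, chromosome 4 and the Het scaffolds. Black bars are medians (19.7 on 2L to 37.5 on 3L among the large arms, 2.50 on the Het scaffolds), diamonds the medians of each replicate, and triangles reporters at 0 in both.

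Reporters on the Het scaffolds were the lowest class. These assembly scaffolds hold heterochromatic sequence close to the centromeres. Their 25 reporters had a median expression of 2.50, with 2.45 in replicate 1 and 0.76 in replicate 2, against 31.8 (30.2 and 26.6) for the 660 reporters of the arms outside the centromere-proximal part. Of the 25, 17 were called below the middle reporter (68.0%) and 2 above (8.0%), against 22.7% and 24.0% of all reporters. Their gDNA counts were not low, with medians of 2003 and 1467. Single scaffolds had few reporters, with 7 of 10 below on 2RHet, 4 of 7 on 3LHet, 5 of 7 on 3RHet and the only reporter of XHet.

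The Het scaffolds were not uniformly silent. The reporter at position 3051092 of 2RHet had an expression of 1075 and 860 in replicates 1 and 2, the 11th highest of the pool, with a fitted log2 ratio of 4.99 ± 0.43 (SE, adjusted p = 1.29e-05, edgeR). The other reporter called above, at position 673443 of 3LHet, reached 69.4 and 76.8. At the other end, the reporter at position 198757 of 3RHet had 1 and 2 cDNA counts from 14900 and 8168 gDNA counts. These reporters were chosen after their values were seen.

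Closeness to the centromere on the arms themselves went with a small difference in the median. Centromere-proximal reporters were taken as those within 2 Mb of the centromere-side end of an arm. On 2L, 3L and X, where the end is not in the table, the highest mapped position stood in for it. These 56 reporters had a median expression of 27.7 (24.4 and 19.0), and 19 of them were below the middle reporter (33.9%) and 11 above (19.6%). Over all reporters these shares were 22.7% and 24.0%, so the share above was close to that of the pool. Together with the Het scaffolds (n = 81), their median log2 expression differed from that of the other arm sites by -1.27, with -1.09 in replicate 1 and -1.37 in replicate 2. Without the Het scaffolds the difference was -0.20 (-0.31 in replicate 1 and -0.49 in replicate 2), and the Het scaffolds alone gave -3.67 (-3.62 and -5.13). For the proximal and Het reporters together, the difference was -0.40 when only reporters with at least 10 cDNA counts in each library were kept. This minimum selects on the level itself and drops the lowest reporters, so it does not test the difference.

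The arms were not alike in this respect. Proximal reporters of 2L (5 of 10), 2R (4 of 8) and 3L (5 of 11) were called below the middle reporter in about equal shares, and none of those on 2L or 3L was called above. Their median expression was 11.1 (15.1 and 8.37), 20.5 (12.4 and 11.9) and 12.2 (10.4 and 16.6), so these 3 groups had no stable order. On 3R, 6 of 13 proximal reporters were above (46.2%) and 1 below (7.7%), with a median of 41.4 (48.3 and 53.5). On the whole of 3R 32.4% were above and 21.0% below. On X, 4 of 14 proximal reporters were below (28.6%) and 3 above (21.4%), close to the shares of all reporters (22.7% and 24.0%). Each of these groups is small, and the difference between arms was not tested.

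Chromosome 4, whose chromatin is largely of the heterochromatic kind, had only 5 reporters. Their expression was 0.23, 39.1, 57.7, 101 and 494 in the mean of both replicates. The highest, at chr4:547814, had 557 and 431 and was called above the middle reporter (adjusted p = 1.58e-06, edgeR), the lowest, at chr4:407950, had 8 and 0 cDNA counts and was called below, and the remaining 3 were not called.

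Along the arms, reporters were grouped in 3-Mb segments, whose medians rest on fewer reporters than those of arms. Their range is therefore not comparable with that of the arms, and what sets its width was not tested. Among the 38 of 42 segments with at least 10 reporters, the median log2 expression ranged from 3.29 to 6.33. In the mean of both replicates the lowest segment was 18 to 21 Mb of 2L (3.90 and 2.72 in replicates 1 and 2), although in replicate 1 the segments from 15 to 18 Mb of X (3.87) and from 12 to 15 Mb of 3R (3.87) were slightly lower, and the highest 18 to 21 Mb of 3R (6.39 and 6.46). The segment medians correlated with r = 0.74 between replicates, across segments of the same libraries. Relative to the median of all reporters, 12 segments were below in both replicates and 17 above in both. The levels within a segment remained almost as diverse as in the whole pool, with a median interquartile range of 2.88 on the log2 scale against 3.06 for all reporters.

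Adjacent segments below the pool median in both replicates occurred on 2L from 0 to 9 Mb and from 15 to 21 Mb, and on X from 15 to 21 Mb. The lowest 2 runs were compared with the rest of their arm, that of 2L together with its last segment. On 2L, the 50 reporters from 15 to 24 Mb, on the centromere side, had a median log2 expression of 3.60 (3.92 and 3.12), against 4.91 (4.69 and 4.50) for the remaining 81 of the arm. Inside this stretch 19 were below the middle reporter and 4 above (38.0% and 8.0%), and outside it 14 and 16 (17.3% and 19.8%). Of all reporters 22.7% were below and 24.0% above. On X, the 48 reporters from 15 to 21 Mb had a median of 3.76 (3.97 and 3.66), against 5.05 (5.02 and 4.67) for the other 99. The stretch on X was mixed, with 15 below and 12 above (31.25% and 25.0%), against 16.2% and 20.2% in the rest of X. Its share above was thus close to that of the pool. The segment of X nearest to the centromere was again higher, at 5.38. Both stretches were picked from these medians, so the differences are descriptions without a test.

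**Figure D3:**
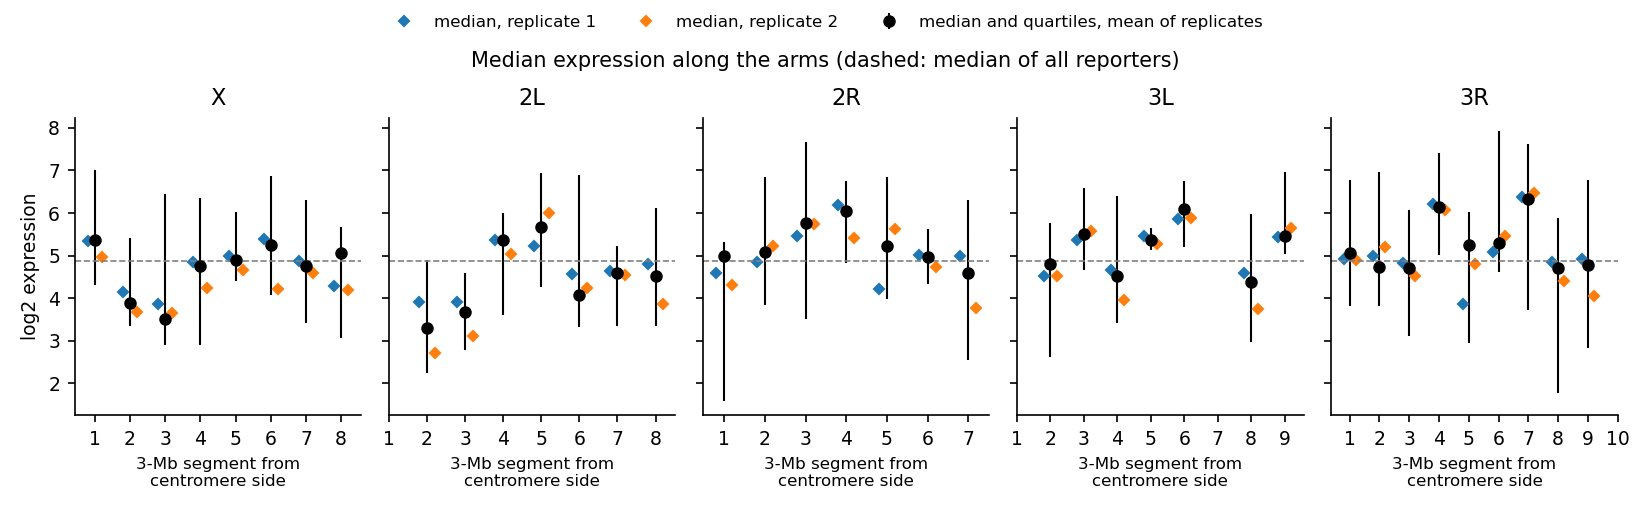
Median log2 expression of 3-Mb segments, numbered from the centromere side of each arm, with the lower and upper quartile as vertical lines and the medians of replicates 1 and 2 as diamonds; only segments with at least 10 reporters are drawn. The medians range from 3.29 on 2L to 6.33 on 3R, and the quartiles of most segments span the dashed median of all reporters.

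Over all reporters, the difference between orientations changed sign between the replicates. The 348 reporters in plus and the 401 in minus orientation differed by 0.16 in median log2 expression (plus minus minus), but by -0.09 in replicate 1 and 0.04 in replicate 2. Within arms, the sign agreed between both replicates only on X (-0.05 and -0.17) and 3R (0.19 and 0.21). In the 6 replicates of the other conditions the plus median was the higher one, by 0.05 to 0.45. Orientation refers to the strand of the assembly and not to the direction of neighbouring genes.

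Reporters that lay close together resembled each other more than distant ones. For the 37 pairs within 10 kb whose members were both above 0 in both replicates, the median absolute difference was 1.31 on the log2 scale (1.48 in replicate 1 and 1.47 in replicate 2), or 2.48-fold. For the 43948 pairs more than 1 Mb apart on the same arm it was 2.12 (2.13 and 2.32), or 4.33-fold. The 94 pairs at 10 to 30 kb were as alike as the closest ones, with 1.29 (1.24 and 1.58). At 30 to 100 kb the difference was 1.98 over 289 pairs and at 100 kb to 1 Mb it was 2.10 over 3656 pairs, close to that of distant pairs. The correlation between the members of a pair was 0.47 within 10 kb, 0.47 at 10 to 30 kb, 0.21 at 30 to 100 kb and 0.02 at 100 kb to 1 Mb. Pairs share reporters and libraries, so these values are descriptions.

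The likeness was also present when the members of a pair were read in different libraries. With the first member taken from replicate 1 and the second from replicate 2, the median difference within 10 kb was 1.28, and with the replicates exchanged it was 1.68, against 2.24 and 2.22 for pairs over 1 Mb apart. Neighbours still differed more than a reporter differed from itself between replicates (0.79). Of the near pairs 37.8% were within 2-fold and 16.2% differed by over 8-fold, and of the distant pairs 25.2% and 33.9%. Near pairs in the same orientation differed by 1.46 (22 pairs) and those in opposite orientation by 1.23 (15 pairs), with 1.64 against 0.99 in replicate 1 and 1.79 against 1.41 in replicate 2. At 10 to 30 kb the order was the opposite, with 0.97 for the same orientation (57 pairs) and 1.44 for opposite orientation (37 pairs), 1.02 against 1.59 in replicate 1 and 1.62 against 1.56 in replicate 2.

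The calls of single reporters followed the same distances. Among pairs within 10 kb with both members called, 11 of 12 were on the same side of the middle reporter, and at 10 to 30 kb 17 of 17 were. At 30 to 100 kb it was 43 of 64, and over 1 Mb 5149 of 10196 (50.5%).

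**Figure D4:**
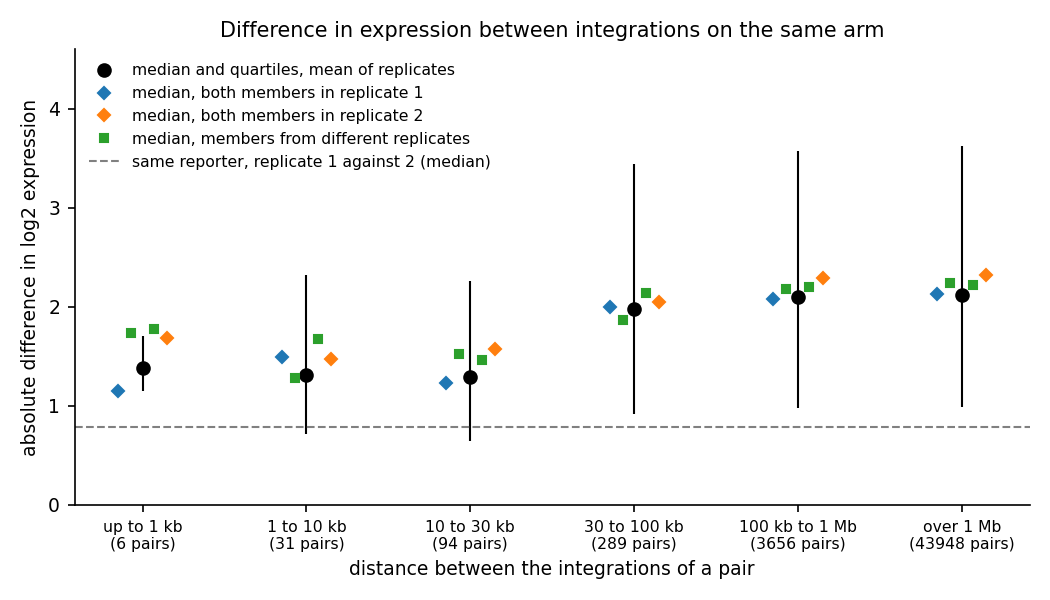
Absolute difference in log2 expression between 2 reporters of the same arm, by the distance between their integrations, as median and quartiles (black), medians within each replicate (diamonds) and medians with the members taken from different replicates (squares). Medians lie at 1.29 to 1.38 up to 30 kb and at 1.98 to 2.12 beyond, all above the dashed line at 0.79 for the same reporter in both replicates.

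Individual neighbours covered the whole range from equal to very different. At the widest, the plus reporter at chr3L:16900114 had an expression of 25.2 and 18.6 in replicates 1 and 2, and the minus reporter 3927 bp away at chr3L:16904041 had 806 and 1032. The pair differed 41.9-fold, and only the second was called above the middle reporter (adjusted p = 9.35e-07, edgeR). On 3R, reporters at 2132199 and 2137932, 5733 bp apart and both in plus orientation, had 51.8 and 37.5 against 1.92 and 2.44, a 20.4-fold difference. Also on 3R, reporters at 23046989 and 23052610, 5621 bp apart, had 9.08 and 1.89 against 90.7 and 91.9. This was the 1 pair within 10 kb called on opposite sides, with adjusted p of 0.027 and 0.0029 (edgeR). In each of these 3 pairs both replicates gave the same order.

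The closest matches were less exact than their means. On X, reporters 5071 bp apart at 15111943 and 15117014 had means of 7.76 and 7.46, and both were called below the middle reporter. Their replicates were 2.96 and 12.6 for the first and 8.37 and 6.56 for the second, so the likeness lay within the replicate spread. On 3L, reporters 8893 bp apart at 11638589 and 11647482 had 87.8 and 49.9 against 58.0 and 70.8. Reporters 6177 bp apart at 13365800 and 13371977 of 3L had 67.3 and 20.6 against 33.8 and 38.1, and neither was called.

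The densest 100-kb windows of X, 2L, 3L and 3R, with the shortest window taken where several held the same number, showed both alike and unlike neighbours. On 2L, 4 reporters within 88.2 kb, starting at 17093988 and inside the low stretch of that arm, all lay below the median, with means of 0.19, 1.76, 5.31 and 8.51, and 3 were called below. A second window of 2L with 4 reporters, from 18340093, was also below the median throughout, at 3.27 to 21.0. On 3R, 7 overlapping or separate windows held 4 reporters. The shortest, 46.6 kb from 7689234, had means of 13.5, 106, 39.4 and 35.0, and none was called. In another, the reporter at 398375 with a mean of 2129 had 3 neighbours within 84.2 kb at 33.7, 172 and 109, of which the last 2 were also called above. By contrast, the windows from 2132199 (2.18 to 146) and 3342874 (1.74 to 264) each held 1 reporter called above and 1 below. None of the remaining windows of 3R held a reporter called below. On 3L, the reporter without reads at 4581277 had a neighbour 7.30 kb away with 0 and 1.63, also called below. The 3 reporters 49.5 to 77.9 kb away had means of 22.3, 20.9 and 50.4 and were not called. Their replicates were 17.2 and 27.3, 37.0 and 4.90, and 98.1 and 2.61, so the last 2 levels were uncertain. On X, 5 reporters within 94.98 kb had means of 2.15, 10.3, 55.7, 63.8 and 29.6 in order of position, and only the first was called below.

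**Figure D5:**
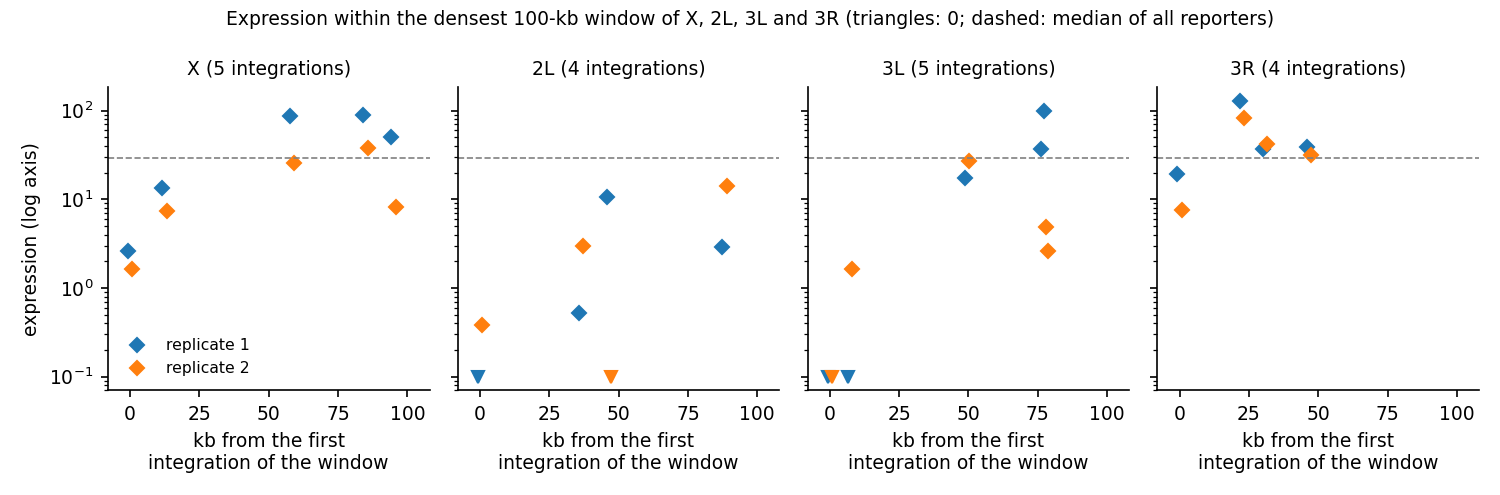
Expression (log axis) of the reporters in the densest 100-kb window (the shortest of those tied) of X, 2L, 3L and 3R against their distance from the first integration of the window, with replicates 1 and 2 as blue and orange diamonds and triangles for 0. The 4 reporters on 2L lie below the dashed median of all reporters (29.4), and the 4 on 3R have means from 13.5 to 106.

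The number of other integrations nearby went with a small rise of the median. Adjacent integrations on the arms were a median of 109 kb apart. The 208 reporters without another within 100 kb had a median expression of 23.5 (24.4 and 22.2), the 238 with 1 neighbour had 30.2 (30.2 and 26.1) and the 270 with 2 or more had 37.8 (35.8 and 31.1). Of those without a neighbour 21.2% were called above and 25.5% below, of those with 1 neighbour 23.5% and 21.4%, and of those with 2 or more 28.5% and 17.0%, against 24.0% and 22.7% of all reporters. Over all 716 arm reporters the rank correlation of expression with the number of neighbours was only 0.05 (0.07 and 0.03).

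The same sites kept their relative levels in the other conditions, which were separate transfections of the same pool. Expression in the 6 replicates of ACF1, GAL4-HP1 and GAL4-ACF1 had a Spearman correlation of 0.81 to 0.86 with the GAL4 mean, across reporters above 0. In all 8 replicates of the 4 conditions 2L had the lowest median of the large arms, the Het and centromere-proximal reporters lay below the other sites, and pairs within 10 kb were more alike than pairs over 1 Mb apart. The log2 difference of median for near against far pairs ranged from -1.68 to -0.47 in the 6 replicates of the other conditions. The replicates share the cells and integration sites, so they are repeats of the measurement and not of the integration.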

How the data were processed

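The authors deposited whole-number barcode counts per reporter and library, not normalized, and an expression ratio, which was checked to be the cDNA count over the gDNA count of the same replicate times 1 factor per library. The factor includes a spike-in of 2.5% of cells by number. The deposited list of 232 spike-in barcodes has no counts and was not used. The submitters' processing notes name dm3; the counting software is not given in the sources used here. The reference at hand was a later release, so no gene annotation was attached.

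Log2 expression is the log2 of the mean of both replicates' ratio, without a pseudocount; reporters at 0 rank lowest. Positions were compared by medians, given for each replicate, without a test, since reporters of 1 pool are not replicates of a condition. Single reporters were tested with edgeR 4.0.16 (R 4.3.3; glmQLFit and glmQLFTest, two-sided, cDNA minus gDNA, 4 GAL4 libraries, median-of-ratios size factors, at least 10 gDNA counts, Benjamini-Hochberg adjustment over 749 reporters, threshold 0.05). The scripts were tested on simulated data. Named reporters were the 4 highest and 4 lowest fitted values past the threshold with at least 100 gDNA counts, the extremes of X, 2L, 3L and 3R, and the 3 most and 3 least alike pairs within 10 kb; reporters on 2R are counted but not named singly. Dense windows (ties settled by the shortest span), stretches and other single reporters were chosen after their values were seen. Members and lists were chosen with earlier results of these data known. Replicate numbers are shared by cDNA and gDNA libraries, whose replicate differences correlated at 0.07. Alternatives covered size factors, DESeq2 1.42.0, count minimums, the pseudocount, gDNA division, window sizes and left-out replicates.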

Additional observations from a re-analysis of the deposited data

How the results depend on the processing

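The 10th to 90th percentile span of log2 expression was 6.25. It was 5.69 with at least 10 cDNA counts per library, 7.18 without division by gDNA, 6.31 to 6.94 with 1 replicate left out and 6.08 without the 10 strongest reporters. The arm difference of 0.92 ranged from 0.69 to 1.01 with 1 replicate left out. The difference of centromere-proximal and Het reporters from the rest (-1.27) was -0.40 with at least 10 cDNA counts, -0.97 without division by gDNA, -0.87 with a 5-Mb window, -0.20 without the Het scaffolds, -3.67 for these alone (an alternative chosen after seeing the data), and -1.37 to -1.09 with 1 replicate left out. The orientation difference of 0.16 reversed to -0.0085 with the mean gDNA share of both replicates, was 0.035 without division by gDNA, and ranged from -0.091 to 0.040 with 1 replicate left out and was 0.15 without the 10 strongest reporters. The near against far pair difference (-0.81) was -0.53 without division by gDNA, -0.45 with near pairs up to 100 kb, -0.14 at 30 to 100 kb (chosen after seeing the data), -0.96 and -0.54 with members from different replicates, and -0.85 to -0.65 with 1 replicate left out. The cause of these changes was not tested. Counts above and below the middle reporter (180 and 170) were 60 and 401 with column totals, 111 and 127 with all 16 libraries, and, in alternatives chosen after seeing the data that kept the GAL4 size factors, 158 and 68 with 16 libraries. With 1 replicate left out they were 67 to 79 above and 29 to 46 below, and with GAL4 size factors kept 98 to 119 above and 16 to 24 below; these fits borrow the spread of the other conditions. With the replicate number as a block, 180 were above and 166 below, and 329 calls were shared with the fit without it; cDNA and gDNA libraries share only a number. DESeq2 gave 195 and 195 and TMM 170 and 170. The filters on gDNA counts removed almost no reporters and so say little. Low reporters are limited by depth, since 47 had under 10 cDNA counts in a replicate. The minimum of 10 cDNA counts removes these by their level, so the smaller span and centromere difference under it are no test of either.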
